A study of Mus musculus with 6 samples.

Results

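The mitochondrial ribosome (mitoribosome) is built from rRNA made inside the mitochondrion and from proteins that are encoded in the nucleus, made in the cytosol and imported. Genes for these proteins were taken as all rows of the deposited count files whose mouse symbol is Mrpl or Mrps followed by a digit, without pseudogenes. The rule found 77 genes of 39179 identifiers, 48 named for the large subunit (Mrpl) and 29 for the small subunit (Mrps). The symbols do not match the particle in every case, since Mrps30 and Mrps18a sit in the large subunit and Mrps36 is a component of the 2-oxoglutarate dehydrogenase complex.

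The mitoribosome translates only the mRNAs of the mitochondrial genome, which code for core subunits of the respiratory chain and of ATP synthase. Many of its proteins descend from bacterial ribosomal proteins, and others were added in the mitochondrial lineage. In liver, where hepatocytes are rich in mitochondria, its output feeds the oxidation of fatty acids through the respiratory chain.

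Livers came from C57BL/6J mice fed a high-fat diet with 60% of energy as fat, starting at 5 weeks of age and lasting 21 weeks. Histology of these obese animals divided them into isolated steatosis (stored fat) and nonalcoholic steatohepatitis (NASH, in which inflammation and injury are added), and 3 livers of each class were sequenced as polyadenylated RNA. Both groups share strain, diet and age, so they differ by histological class and not by a treatment, and no lean liver is analysed here. The labels list hepatic samples without naming the animal of each, so p-values measure the spread between these samples.

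Libraries held 13909238 to 18002095 gene counts, of which 62.0% to 83.9% fell on mitochondrially encoded genes. Loci with rRNA-like sequence took 22.3% of the counts of NASH 3, 8.96% of steatosis 2 and 1.06% or less of the other libraries. The 77 genes received 8142 to 12304 counts per library in steatosis and 4120 to 5976 in NASH, and the median tested member had 40.5 to 136 counts in a library. Counts outside mitochondrially encoded genes and rRNA-like loci numbered 3378730 to 5149189 in steatosis and 2185922 to 2719869 in NASH. This depth differed between the groups without overlap, so raw counts of the members do not compare them. Levels are given as CPM, counts divided by library size, after TMM scaling of that size by edgeR, whose factors ran from 0.79 to 1.5. All sums over genes below use TMM-scaled CPM.

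Of the 77 genes, 74 passed the filter on low counts, 46 Mrpl and 28 Mrps. Mrpl53 had 0 counts in all 6 libraries, and 695 of its 790 exon bases also belong to Gm42688 on the same strand. Mrpl23 had counts of 12, 12 and 6 in the steatosis libraries and of 5, 3 and 7 in the NASH libraries. The near-identical processed pseudogene Mrpl23-ps1 had between 152 and 184 counts per steatosis library and between 68 and 99 per NASH library, so the reads of Mrpl23 may have been split. Mrps36 had counts of 1, 5 and 6 in the steatosis libraries and of 0, 7 and 2 in the NASH libraries.

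The summed level of mitochondrial ribosomal protein transcripts was lower in every NASH library than in any steatosis library. It was 603, 488 and 456 CPM in steatosis 1 to 3 and 415, 389 and 374 CPM in NASH 1 to 3. Steatosis 1 was highest and NASH 3 lowest. In bulk liver, fewer cells of a type and less RNA per cell cannot be told apart. As a share of the counts outside mitochondrially encoded genes and rRNA-like loci, the members took 0.272%, 0.241% and 0.239% in steatosis and 0.221%, 0.213% and 0.188% in NASH, again without overlap.

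The large subunit summed to 455, 346 and 312 CPM in steatosis and 281, 267 and 253 CPM in NASH. The small subunit summed to 148, 142 and 145 CPM in steatosis and 135, 121 and 121 CPM in NASH. Both sums were higher in every steatosis library than in any NASH library, and the spread in steatosis was wide for the large subunit and narrow for the small one. Mrpl38 alone held 23.6% of all member counts in steatosis 1, against 5.73% to 11.4% in the other libraries. Without it, all other members summed to 461, 432 and 412 CPM in steatosis and 391, 363 and 353 CPM in NASH, still without overlap.

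**Figure D1:**
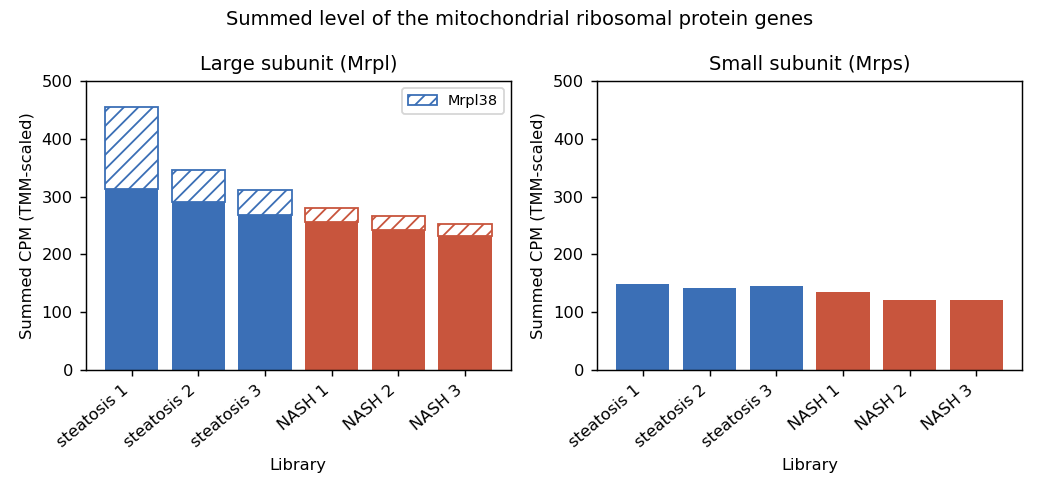
Summed TMM-scaled CPM (y axis, from 0) of the Mrpl genes (left) and the Mrps genes (right) in each of the 6 libraries (x axis, steatosis in blue and NASH in red), with Mrpl38 hatched. Large-subunit sums lie between 312 and 455 CPM in steatosis and between 253 and 281 CPM in NASH, and small-subunit sums between 142 and 148 and between 121 and 135 CPM.

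Gene by gene, the quasi-likelihood test of edgeR, adjusted by Benjamini and Hochberg's method over all 11375 tested genes, called 4 of the 74 members lower in NASH and 0 higher at an adjusted p under 0.05. Among all tested genes it called 3.33% lower and 1.49% higher, so 4 of 74 members, or 5.41%, is a share near the background. At an unadjusted p under 0.05, 19 members were lower and 1 was higher (Mrps27), against 12.9% and 10.2% of all tested genes. DESeq2 and limma-voom, which were run on the same counts, called 0 members higher too, against 2.64% and 1.40% of all tested genes.

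Most members had a fold change below 0. The log2 fold change of NASH over steatosis was below 0 for 57 of the 74 members, or 77.0%, and for 49.4% of all tested genes. Groups did not overlap, with NASH lower, for 29 members, or 39.2%, against 16.2% of all tested genes. With NASH higher this held for 2 members, Mrps27 and Mrpl18, or 2.70%, against 13.1%. The median log2 fold change was -0.29 over the members and 0.01 over all tested genes.

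Under library sizes from the genes outside the mitochondrially encoded and rRNA-like ones, without TMM, the median of all tested genes moved by 0.11 and that of the members to -0.18. Relative to the median of all tested genes, the members stayed at -0.30 with TMM and -0.29 with that scaling. Calls over all tested genes were then 179 higher (1.57%) and 222 lower (1.95%), against 169 and 379 with TMM, and 2 members were called lower. Members below 0 numbered 51, and 22 members were lower without overlap, against 12.6% of all tested genes.

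**Figure D2:**
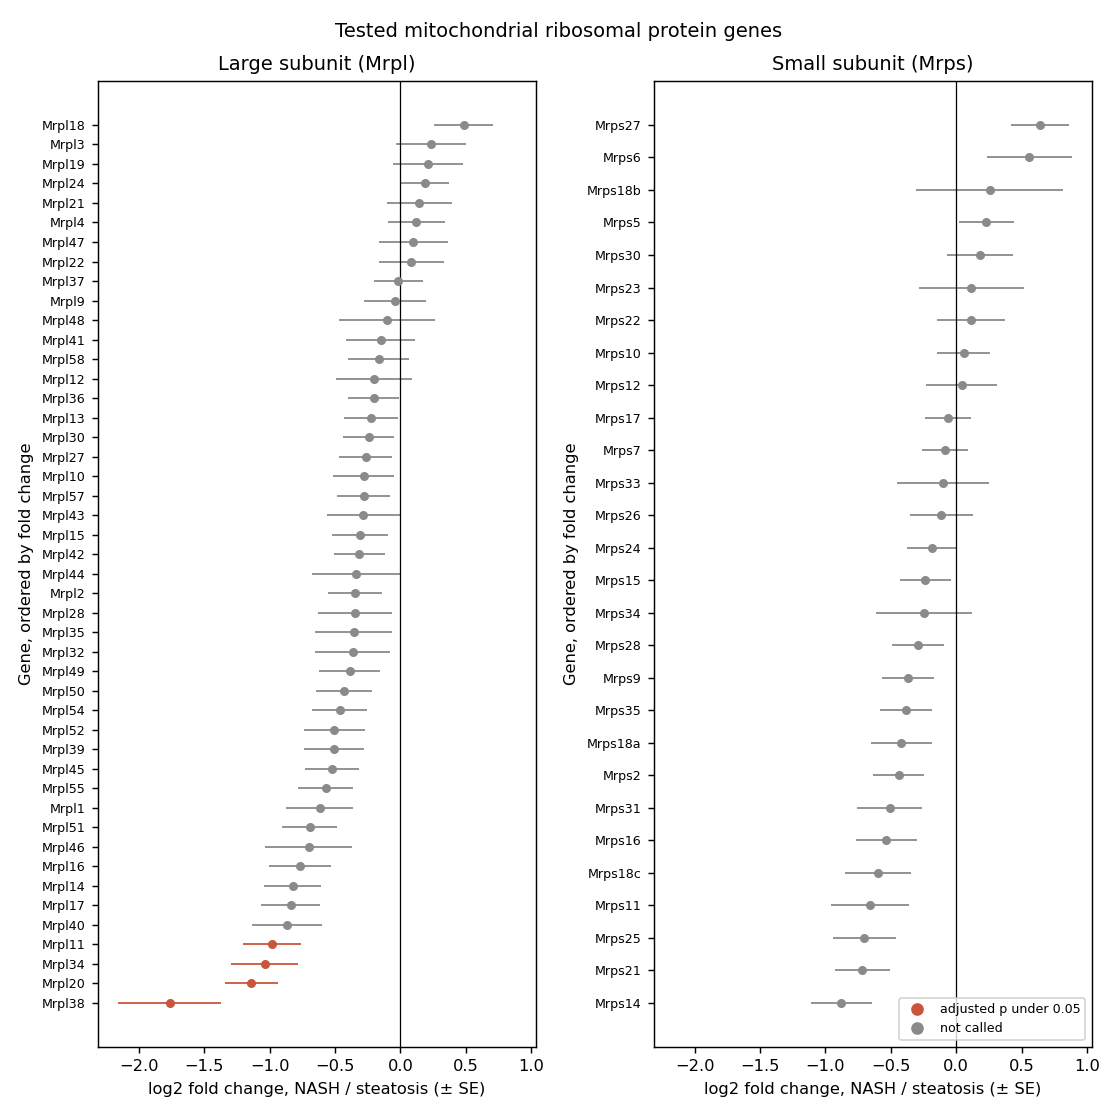
log2 fold change of NASH over steatosis (x axis, points, with bars of ± 1 SE) for each tested Mrpl gene (left) and Mrps gene (right), ordered by value along the y axis. Red marks the 4 genes past the adjusted threshold, and 38 of 46 Mrpl genes and 19 of 28 Mrps genes lie left of 0.

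All 4 called genes belong to the large subunit, 8.70% of its 46 tested genes, and 0 of the 28 Mrps genes were called, of which 6 were lower and 1 higher at an unadjusted p under 0.05. DESeq2 called 5 members lower, again of the large subunit alone, and limma-voom called 3, against 4.51% and 3.24% of all tested genes. Other settings also called small-subunit genes. Mrps14 and Mrps21 were among the 10 members called lower with no filter on low counts, against 4.61% of all genes in that fit. Both were also among the 11 called lower at an adjusted p under 0.1 in edgeR, against 6.89% of all tested genes. The difference between the subunits was not tested.

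Mrpl20 is a relative of the bacterial protein L20, an rRNA-binding protein of the large subunit, and its gene lies at chr4:155802878-155809975 on the plus strand of GRCm38. Its level was 8.44, 7.19 and 9.13 CPM in steatosis and 3.82, 3.28 and 4.18 CPM in NASH. Every steatosis library stood above every NASH library, and the spread within each group was small beside the gap. The log2 fold change was -1.14 (SE 0.20, edgeR's adjusted p = 0.0159), a level 2.20-fold lower in NASH.

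Mrpl11 is the counterpart of bacterial L11, which sits at the base of the stalk where translation factors bind. Its gene lies at chr19:4962147-4966999 on the plus strand. Its level was 4.74, 4.20 and 5.34 CPM in steatosis and 2.57, 2.48 and 2.18 CPM in NASH. The groups did not overlap, and NASH 3 was lowest. The log2 fold change was -0.98 (SE 0.22, edgeR's adjusted p = 0.0361).

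Mrpl34, a small relative of bacterial L34, is encoded at chr8:71464959-71465747 on the plus strand. It was measured at 4.87, 3.66 and 6.01 CPM in steatosis and 2.15, 2.28 and 2.72 CPM in NASH. Steatosis 2 was the nearest to the NASH libraries, and the groups did not overlap. The log2 fold change was -1.04 (SE 0.26, edgeR's adjusted p = 0.0478), close to the threshold.

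Mrpl38 has no bacterial counterpart and is part of the central protuberance, the crest of the large subunit. Its gene lies at chr11:116131817-116138868 on the minus strand. It was measured at 142, 55.7 and 44.2 CPM in steatosis and 24.2, 25.5 and 21.4 CPM in NASH. Steatosis 1 was far above the other 2 steatosis libraries, and the lowest steatosis library was still above all 3 NASH libraries. The log2 fold change was -1.77 (SE 0.40, edgeR's adjusted p = 0.0348), and without steatosis 1 it was -1.06 (edgeR's adjusted p = 0.0602).

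Calls were lost when libraries were left out. The number of members called lower was 0 without steatosis 1, 0 without NASH 1, 0 without NASH 2, 1 without steatosis 2, 1 without NASH 3 and 4 without steatosis 3. In these fits 0.656%, 1.01%, 1.08%, 0.726%, 1.15% and 2.6% of all tested genes were called lower, in the same order. The 4 called without steatosis 3 were Mrpl20, Mrpl38, Mrpl14 and Mrpl16, without Mrpl11 and Mrpl34. Across these 6 fits the log2 fold change ran from -1.23 to -1.03 for Mrpl20, from -1.06 to -0.86 for Mrpl11, from -1.20 to -0.82 for Mrpl34 and from -2.04 to -1.06 for Mrpl38. Mrpl20 was called in 12 of 16 alternative analyses, Mrpl38 in 10, Mrpl11 in 7 and Mrpl34 in 4, and the sign of the fold change was the same in all 16 for each of the 4. Among the 16 is the main fit read at an adjusted p under 0.1, where a called gene cannot lose its call or sign.

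**Figure D3:**
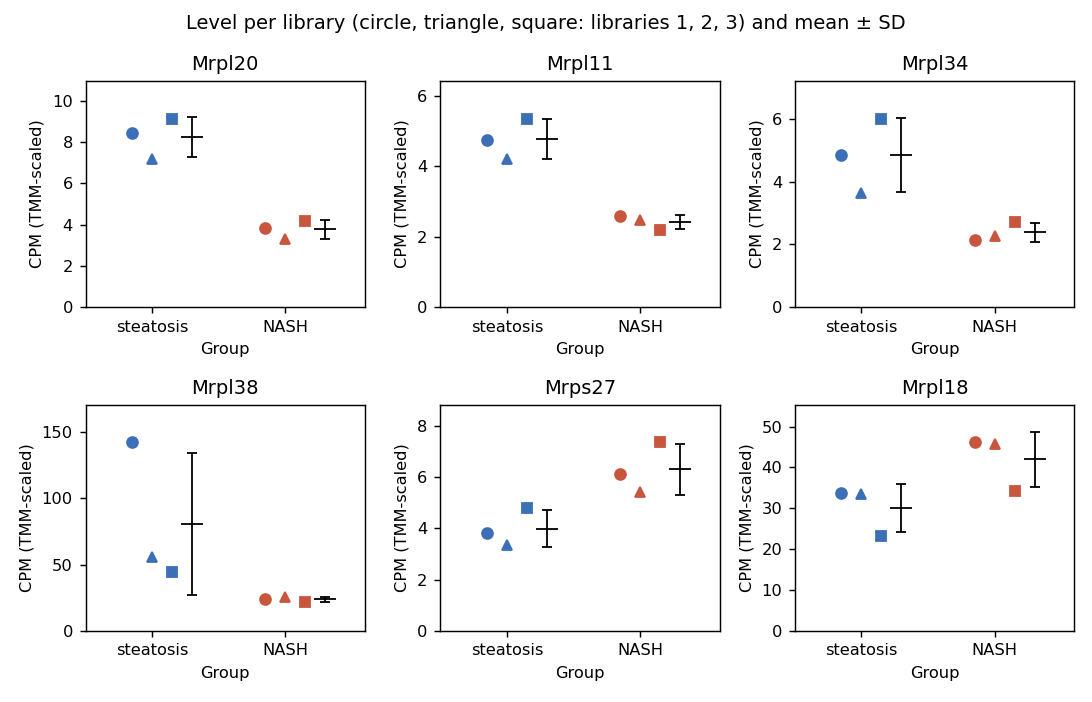
TMM-scaled CPM (y axis, from 0, one scale per panel) of 6 genes in each library, with circle, triangle and square for libraries 1, 2 and 3 of a group (x axis) and mean ± SD (n = 3) beside them. For Mrpl20, Mrpl11, Mrpl34 and Mrpl38 the steatosis points lie above the NASH points, and for Mrps27 and Mrpl18, which did not pass the threshold, below them.

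Since most members had fold changes of one sign, the sequence before their starts was examined in RefSeq windows that run from 250 bases before to 50 after a start (GRCm38.p6). These held 74 windows of 68 members. Mrpl4, Mrpl13, Mrpl15, Mrpl19, Mrpl38, Mrpl54, Mrps28, Mrps34 and Mrps35 had none in the table. Shown here are the parts before the start that lie in no annotated exon, for 3 of the called genes, for Mrps14, the small-subunit gene with the lowest fold change, and for Mrps27, the member with the highest. The Mrpl11 stretch runs from 250 to 160 bases before the RefSeq start, and the other stretches end 1 base before it. Sequences run 5′ to 3′ on the strand of the gene, and capitals mark CCGGAAG or its reverse complement CTTCCGG, a site type of ETS factors such as the nuclear respiratory factor GABP. The stretches lie at chr4:155802628-155802877 (plus) for Mrpl20, chr19:4962056-4962146 (plus) for Mrpl11, chr8:71464676-71464925 (plus) for Mrpl34, chr1:160194965-160195214 (plus) for Mrps14 and chr13:99344706-99344785 (plus) for Mrps27.
Mrpl20: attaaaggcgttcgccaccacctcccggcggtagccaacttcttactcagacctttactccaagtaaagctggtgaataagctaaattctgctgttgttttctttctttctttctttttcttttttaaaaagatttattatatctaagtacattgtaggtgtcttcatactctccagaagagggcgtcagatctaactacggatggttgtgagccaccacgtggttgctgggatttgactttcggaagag
Mrpl11: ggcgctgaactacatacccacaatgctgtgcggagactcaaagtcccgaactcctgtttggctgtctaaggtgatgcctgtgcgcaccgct
Mrpl34: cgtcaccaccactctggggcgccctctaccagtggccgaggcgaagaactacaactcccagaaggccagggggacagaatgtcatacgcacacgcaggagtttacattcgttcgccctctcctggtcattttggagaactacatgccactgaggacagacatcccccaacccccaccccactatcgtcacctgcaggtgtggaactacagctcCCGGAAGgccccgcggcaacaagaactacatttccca
Mrps14: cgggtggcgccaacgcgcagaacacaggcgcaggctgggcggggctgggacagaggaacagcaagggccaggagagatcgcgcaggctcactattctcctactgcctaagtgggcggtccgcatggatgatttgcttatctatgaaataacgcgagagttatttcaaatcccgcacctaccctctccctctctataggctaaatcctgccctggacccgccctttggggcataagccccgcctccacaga
Mrps27: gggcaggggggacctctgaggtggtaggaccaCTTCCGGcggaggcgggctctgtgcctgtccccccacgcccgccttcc

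In the Mrpl34 stretch the ETS letters begin 37 bases before the RefSeq start, which lies upstream of the gene start given above. In that of Mrps27 the letters begin 48 bases before the RefSeq start on the other strand. The Mrpl20, Mrpl11 and Mrps14 windows held no match to them on either strand. Over all members, 25 of 74 windows, or 33.8%, held the letters, against 17.8% of the windows of tested genes and 11.6% of all windows of this length. The letters AAGATGGC (YY1, both strands) were in 16.2% of member windows, 4.58% of those of tested genes and 3.05% of all. The NRF1 motif, a longer palindrome, was in 18.9%, 13.3% and 8.57%. The ETS, YY1 and NRF1 motifs do not contain one another.

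Further motifs were counted in the same windows. AAGGTCA (ERR, both strands) was in 4 of 74 member windows, or 5.41%, against 3.44% of windows of tested genes. The shares were 9.46% against 10.1% for CACGTG (E-box), 39.2% against 37.1% for CCAAT (both strands) and 6.76% against 7.36% for TATAAA (both strands). Members with the ETS letters had a median log2 fold change of -0.14 over 24 tested genes, and those without it -0.35 over 41. With and without the NRF1 motif the medians were -0.36 and -0.27, and for YY1 -0.26 and -0.28. They were -0.22 and -0.31 for ERR, -0.35 and -0.28 for the E-box, -0.33 and -0.28 for CCAAT and -0.19 and -0.30 for TATAAA. The gap was thus not of one direction over the motifs, and these differences were not tested. A match is a description of the letters in the window, and whether a factor binds was not tested.

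Starts of the members lay close to those of other genes. For 33 of 77 members, or 42.9%, the start of a gene transcribed the other way lay within 1000 bases, against 16.7% of the protein-coding genes among those tested. The log2 fold changes within pairs had the same sign in some pairs and opposite signs in others. They were -0.69 for Mrpl51 and 0.98 for Ncapd2, and -0.60 for Mrps18c and 0.70 for Helq. Mrps27 starts 81 bases from Ptcd2, a pentatricopeptide repeat protein of mitochondria, whose log2 fold change was 0.44 (edgeR's adjusted p = 0.309). Mrpl46 and Mrps11 form such a pair with each other, with starts 412 bases apart. Their log2 fold changes were -0.70 and -0.66 (edgeR's adjusted p = 0.234 and 0.218), and for both genes every NASH library was below every steatosis library. Mrpl46 and Mrps11 share 173 exon bases on opposite strands. Reads of these bases cannot be told apart if strand was not used in counting.

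Mrpl38 was read together with the genes beside it, since 1 library set much of its value. Fbf1, a ciliary protein gene that lies upstream on the same strand with a gap of 3.417 kb, was at 250, 61.7 and 41.3 CPM in steatosis and 13.4, 21.3 and 22.3 CPM in NASH. Its log2 fold change was -2.63 (SE 0.59, edgeR's adjusted p = 0.0354). Steatosis 1 was the highest library for both genes. Trim65, 0.689 kb downstream on the same strand, was at 1.91, 3.06 and 3.45 CPM in steatosis and 3.61, 3.75 and 3.99 CPM in NASH, with steatosis 1 the lowest (log2 fold change 0.42, edgeR's adjusted p = 0.375). Whether reads of one gene were counted in the next was not tested.

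**Figure D4:**
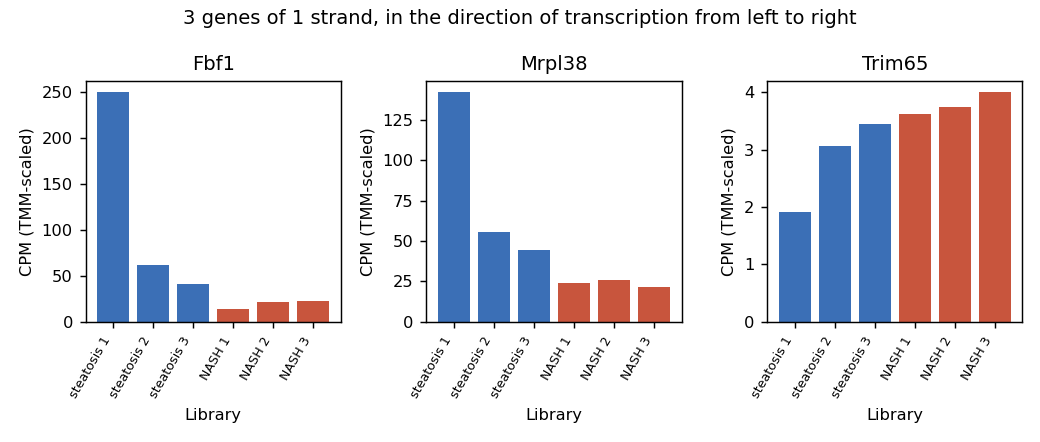
TMM-scaled CPM (y axis, from 0, one scale per panel) of Fbf1, Mrpl38 and Trim65 in each library (x axis, steatosis in blue and NASH in red), 3 genes of 1 strand in their order of transcription. Steatosis 1 is the highest library for Fbf1 and Mrpl38, at 250 and 142 CPM, and the lowest for Trim65.

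Below the 4 called genes, the next members by fold change came from both subunits, and none passed the adjusted threshold in edgeR. Mrps14, the relative of bacterial S14 in the head of the small subunit, was at 4.56, 4.55 and 3.97 CPM in steatosis and 2.78, 2.28 and 2.00 CPM in NASH, with no overlap (log2 fold change -0.88, edgeR's adjusted p = 0.0563). Mrpl14, at the interface between the subunits, was at 14.9, 14.1 and 10.5 CPM in steatosis and 8.96, 6.56 and 6.72 CPM in NASH. Its log2 fold change was -0.82 (edgeR's adjusted p = 0.0563), and DESeq2 called it (adjusted p = 0.0482).

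Mrpl40, another protein of the central protuberance without bacterial relative, had a log2 fold change of -0.87, and Mrpl17, a relative of bacterial L17, of -0.84. For Mrpl16, the counterpart of bacterial L16, it was -0.77, and for Mrps21, that of bacterial S21, -0.72. Their edgeR's adjusted p-values were 0.0918, 0.0607, 0.0887 and 0.0758 in that order. In each of these 4 genes the highest NASH library was below the lowest steatosis library. With no filter on low counts, 19803 genes were tested and 10 members were called lower, against 4.61% of all genes in that fit.

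Members with fold changes above 0 were 17 of 74, and only Mrps27 and Mrpl18 had no overlap between groups. Mrps27, a pentatricopeptide repeat protein of the small subunit found only in mitochondria, was at 3.82, 3.36 and 4.79 CPM in steatosis and 6.11, 5.42 and 7.35 CPM in NASH. The lowest NASH library was above the highest steatosis library, and the log2 fold change was 0.64 (SE 0.22, edgeR's adjusted p = 0.113). Its exons share 506 bases with 6430562O15Rik on the other strand, which was at 0.21 CPM or less in every library. Mrpl18, a relative of bacterial L18 in the central protuberance, was at 33.6, 33.4 and 23.2 CPM in steatosis and 46.1, 45.7 and 34.2 CPM in NASH.

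The lowest NASH library for Mrpl18 was close to the highest in steatosis, and the log2 fold change was 0.48 (SE 0.23, edgeR's adjusted p = 0.233). The gene shares 141 exon bases with Tcp1, a chaperonin subunit gene on the other strand with a log2 fold change of 0.25 (edgeR's adjusted p = 0.502), and reads of the shared bases cannot be told apart if strand was not used in counting. Mrps6, the relative of bacterial S6, had a log2 fold change of 0.56 with overlapping groups (edgeR's adjusted p = 0.337). For Mrps18b, Mrpl3, Mrps5, Mrpl19, Mrpl24, Mrps30 and Mrpl21 the values lay between 0.14 and 0.25, all with overlapping groups and edgeR's adjusted p-values of 0.553 or more.

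Between genes, levels were compared as CPM per kilobase of exon, by the median of the 6 libraries. Exon length is that of all annotated exons of a gene together, and the order depends on it. For Mrpl38 it was 2550 bases, against 1411 in its longest protein-coding transcript, and for Mrpl18 1398 against 1219. Mrpl18 stood first at 24.3, followed by Mrpl38 at 13.7, Mrps21 at 13.3, Mrpl54 at 10.4 and Mrpl14 at 10.3. On this scale Mrpl38 was at 55.7, 21.9 and 17.3 in steatosis and 9.48, 10.01 and 8.403 in NASH, and Mrpl18 at 24.1, 23.9 and 16.6 in steatosis and 33.0, 32.7 and 24.5 in NASH. Mrpl18 was the higher of the pair in every NASH library, and in steatosis the order differed between libraries, with Mrpl38 far higher in steatosis 1 only. At the low end were Mrpl3 at 0.34, Mrpl48 at 0.20, Mrps36 at 0.16, Mrpl23 at 0.10 and Mrpl53 at 0. The median level of Mrpl18 was thus far above that of Mrpl48, the lowest among the tested members.

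The 3 relatives of bacterial S18 occupy different places in the particle, Mrps18c the site of the bacterial protein, Mrps18b elsewhere in the small subunit and Mrps18a in the large one. Mrps18c was at 2.71, 2.70 and 2.67 CPM in steatosis and 1.53, 1.74 and 2.09 CPM in NASH (log2 fold change -0.60, edgeR's adjusted p = 0.186). Mrps18a had a log2 fold change of -0.42 (edgeR's adjusted p = 0.314), and the groups did not overlap for either gene. Mrps18b was low and scattered, at 1.36, 1.68 and 0.408 CPM in steatosis and 2.22, 0.938 and 0.726 CPM in NASH, and its value of 0.25 had an SE of 0.56.

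Members were also split by the particle nomenclature, which names a protein for its bacterial counterpart or as specific to mitochondria. The latter class holds Mrps18a and Mrps18b, although they are relatives of S18. By that split, the 28 tested large-subunit proteins named for a bacterial counterpart had a median log2 fold change of -0.27, and 20 were below 0. The 20 large-subunit proteins named as specific to mitochondria, counted by place in the particle, had a median of -0.40, and 19 were below 0, with Mrps30 the exception. In the small subunit the medians were -0.26 over 16 genes of the first class and -0.11 over 10 of the second. Under the scaling without TMM named above, the last of these was 0.00 and 17 of the 20 large-subunit genes of the second class were below 0. By symbol, medians were -0.33 for Mrpl, -0.31 without Mrpl38, and -0.21 for Mrps, and none of these differences was tested.

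Exons of 32 of the 77 members share bases with another gene, 28 of them with a gene on the opposite strand. The 43 tested members without such overlap had a median log2 fold change of -0.37, and the 31 with it -0.19. All 4 calls were among the 43, or 9.30%, against 3.33% of all tested genes called lower, and this difference was not tested. Near-identical copies elsewhere (at least 97% identity over 50% of a transcript) were found for Mrps21, Mrpl27, Mrpl22, Mrps10 and Mrpl23, whose counts are uncertain for that reason, and for none of the called genes. Stretches below that share were found in further members, and their counts may be affected too. Among them were 1016 bases of Mrps5, 417 of Mrps18b and 387 of Mrpl51, each shared with a processed pseudogene that had counts. Across the 74 members, the log2 fold change had a Spearman correlation of 0.13 with exon length, against 0.17 over 11277 tested genes. The points share the same 6 libraries, and the value is a description.

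Steatosis 1 was the highest of the 6 libraries for 29 of 74 members, and NASH 2 and NASH 3 were the lowest for 23 each. Steatosis 2 was highest for 11 and steatosis 3 for 12. A NASH library was highest for 22 members, of which NASH 1 took 9, NASH 2 took 8 and NASH 3 took 5. In the fit of the 4 libraries with few rRNA-like counts, which leaves out steatosis 2 and NASH 3, the members' median log2 fold change was -0.30 and 0 members were called, against 0.163% of all genes lower there.

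Mitoribosome proteins whose symbols fall outside the rule were read from the same fit. None of the 5 was called by edgeR, their median log2 fold change was -0.23, and 2 were lower at an unadjusted p under 0.05, Aurkaip1 and Gadd45gip1. Aurkaip1, a small-subunit protein, was at 17.9, 15.3 and 16.4 CPM in steatosis and 12.5, 10.04 and 11.3 CPM in NASH (log2 fold change -0.55, edgeR's adjusted p = 0.0992). Gadd45gip1, of the large subunit, had a log2 fold change of -0.90 (edgeR's adjusted p = 0.173). Dap3, the GTP-binding protein of the small subunit, was at 14.2, 18.4 and 16.3 CPM in steatosis and 23.5, 19.8 and 19.8 CPM in NASH, higher in each NASH library (log2 fold change 0.37, edgeR's adjusted p = 0.267). Ptcd3 and Chchd1 had values of -0.06 and -0.23 with overlapping groups.

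Factors that build or serve the mitoribosome had other medians than its proteins. For 26 tested assembly and rRNA maturation factors, edgeR called 0, with 3 higher and 3 lower at an unadjusted p under 0.05, and the median log2 fold change was -0.02. Tfb1m, which methylates the rRNA of the small subunit, was at 0.986, 1.14 and 1.04 CPM in steatosis and 1.67, 1.94 and 2.18 CPM in NASH (log2 fold change 0.86, edgeR's adjusted p = 0.110). Ddx28, an RNA helicase of large-subunit assembly, was at 9.30, 3.24 and 3.15 CPM in steatosis and 2.57, 1.34 and 2.36 CPM in NASH, with steatosis 1 far above the rest (log2 fold change -1.31, edgeR's adjusted p = 0.113). DESeq2 called Ddx28 lower (adjusted p = 0.0494).

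Of 14 tested translation factors, edgeR called 0, with 1 higher and 1 lower at an unadjusted p under 0.05, and the median log2 fold change was 0.25. Tufm, the elongation factor that delivers tRNA to the mitoribosome, was at 3.27, 1.80 and 1.93 CPM in steatosis and 0.834, 0.737 and 1.09 CPM in NASH, without overlap (log2 fold change -1.39, edgeR's adjusted p = 0.0531). DESeq2 called it (adjusted p = 0.0357). Slirp, which with Lrpprc stabilises mitochondrial mRNA, was at 2.03, 1.68 and 2.78 CPM in steatosis and 2.92, 5.69 and 3.72 CPM in NASH (log2 fold change 0.91, edgeR's adjusted p = 0.111).

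Among 8 genes of mitochondrial transcription and DNA maintenance, edgeR called 0, with 0 higher and 2 lower at an unadjusted p under 0.05, Tefm at -0.69 and Tfb2m at -0.67, and the median log2 fold change was 0.05. Both proteins serve the mitochondrial RNA polymerase, in elongation and in initiation. Among 10 regulators of mitochondrial biogenesis edgeR also called 0, with 2 higher and 0 lower at an unadjusted p under 0.05, and the median was -0.06. These 2 were Pprc1, a coactivator related to PGC-1, at 0.71 (edgeR's adjusted p = 0.111), and Gabpb1, a subunit of GABP, at 0.53 (edgeR's adjusted p = 0.161). In both genes every NASH library was above every steatosis library.

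The mRNAs that the mitoribosome translates went the other way in sign. All 13 mitochondrially encoded mRNAs had a log2 fold change above 0. The median was 0.49 under TMM and up to 0.62 under the other scalings. With TMM, edgeR called 0 of them and 2 were higher at an unadjusted p under 0.05. With upper-quartile factors it called 1 higher, against 1.71% of all tested genes, and with library sizes from other genes 1, against 1.57%. Under TMM, every NASH library was above every steatosis library for 6 of the 13, or 46.2%, against 13.1% of all tested genes. Their sums overlapped, at 462980 to 798725 CPM in steatosis and 750444 to 975438 CPM in NASH. mt-Atp8, a subunit of ATP synthase, was at 212, 157 and 170 CPM in steatosis and 657, 313 and 323 CPM in NASH (log2 fold change 1.26, edgeR's adjusted p = 0.0534), with NASH 1 far above the others. DESeq2 called it higher (adjusted p = 0.00154). For mt-Nd4l, a subunit of complex I, the log2 fold change was 0.67 (edgeR's adjusted p = 0.204). Libraries were made from polyadenylated RNA, so these counts cover polyadenylated mitochondrial transcripts.

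**Figure D5:**
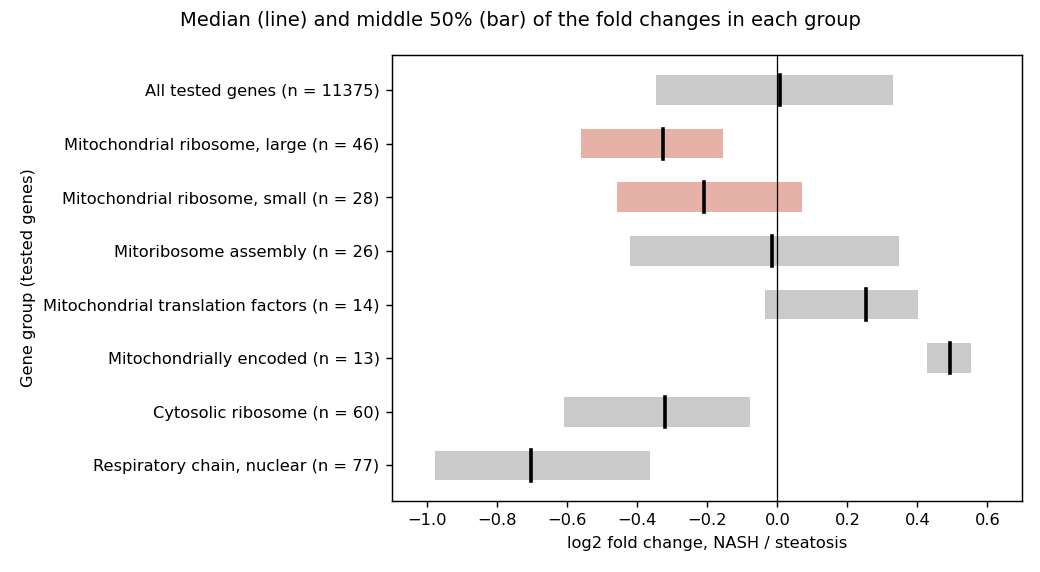
log2 fold change of NASH over steatosis (x axis) in groups of tested genes (y axis, with the number of genes), as the median (black line) and the middle 50% of genes (bar). Both mitoribosome groups (red) have medians below 0, at -0.33 and -0.21, between those of all tested genes at 0.01 and of the nuclear-encoded respiratory chain at -0.70.

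Other large nuclear-encoded protein complexes gave a frame for the size of the shift. Cytosolic ribosomal proteins had a median log2 fold change of -0.32 over 60 tested genes, with 4 called lower and 0 higher by edgeR, and nuclear-encoded respiratory chain subunits -0.70 over 77 tested genes, with 21 called lower and 0 higher. Of all tested genes, 3.33% were called lower. At an unadjusted p under 0.05, 0 genes of either list were higher. Their groups did not overlap, with NASH lower, for 24 of 60 and 54 of 77 genes, against 29 of 74 mitochondrial ribosomal proteins and 16.2% of all tested genes. The mitoribosome thus lay near the cytosolic ribosome on both measures, and the differences between the lists were not tested. The 76 cytosolic genes, of which 60 were tested, summed to 506 to 641 CPM in steatosis and 360 to 406 CPM in NASH. Near-identical copies were searched for among the mitochondrial ribosomal proteins only. How far such copies affect the counts of the other lists was not tested.

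Markers of liver cell types were read beside these values. Summed marker levels of hepatocytes were 11472 to 12876 CPM in steatosis and 9658 to 11974 CPM in NASH, with 0 of 8 markers called by edgeR and 0 at an unadjusted p under 0.05. For Kupffer cells and macrophages they were 49.2 to 54.4 and 38.9 to 82.7 CPM, with 0 of 10 called and 1 higher at an unadjusted p under 0.05. Lymphocyte markers summed to 1.48 to 3.60 and 1.74 to 3.27 CPM, with 1 of 10 markers tested and 0 called, and neutrophil markers to 0.493 to 1.11 and 0.469 to 1.27 CPM, with 0 of 6 tested and Ngp at 0 in all libraries.

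Marker sums of the other 3 cell types did not overlap between the groups. Stellate cell markers summed to 117 to 124 CPM in steatosis and 81.4 to 106 CPM in NASH, and 1 of 9, Dcn, was called lower (log2 fold change -1.03, edgeR's adjusted p = 0.0348). Sinusoidal endothelial markers summed to 65.5 to 85.9 and 91.5 to 135 CPM, with 0 of 8 called by edgeR and 3 higher at an unadjusted p under 0.05. Cholangiocyte markers summed to 23.9 to 42.0 and 12.4 to 23.3 CPM, with 3 of 6 tested, 0 called and 1 lower at an unadjusted p under 0.05. Spp1 made up most of that sum, at 20.7 to 38.5 CPM in steatosis and 10.5 to 21.2 CPM in NASH with overlapping groups, while Sox9 was at 0.370 to 0.599 CPM in steatosis and 0.817 to 0.871 CPM in NASH (log2 fold change 0.79, edgeR's adjusted p = 0.256). The part of cell composition in the mitoribosome values was not tested.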

How the data were processed

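RNA sequencing of 3 steatosis and 3 NASH livers was read from the deposited files, which hold raw counts per gene, whole numbers that the authors did not normalize. The submitters' processing notes name TopHat2, HTSeq and the mm10 (GRCm38) genome. For versions, annotation, use of strand and handling of multi-mapping reads, nothing is stated in these sources. Groups follow the sample titles.

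Symbols, exons and positions came from GENCODE M21, and 37607 of 39179 identifiers had a symbol. In R 4.3.3, edgeR 4.0.16 fitted all 6 libraries after its default low-count filter (minimum count 10, minimum total 15), with TMM factors, the quasi-likelihood test, two-sided, and Benjamini-Hochberg adjustment over 11375 genes. A call is an adjusted p under 0.05. The SE was derived from the fold change and the F statistic. CPM are relative to TMM-scaled library sizes. DESeq2 1.42.0, limma 3.58.1 (voom), other scalings, filters and thresholds, a replicate block and each library left out were alternatives. The test was checked on simulated data.

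Members and lists were chosen with earlier results of these data known. Named were called members, the 10 highest and 10 lowest fold changes, the 5 highest and 5 lowest levels per kilobase, the Mrps18 paralogs, members the filter left out, the 5 mitoribosome proteins outside the rule, and in each pathway list the called genes or else the 2 with the smallest p. Neighbours and overlapping or paired genes were named after their values were seen, and 1 neighbouring gene is not reported here.

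Counts of libraries of the same group were compared, and chi-square per degree of freedom was 37.4 or more in every pair, so none was counted as a repeat deposit of another library. This does not show that they came from separate animals.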

Additional observations from a re-analysis of the deposited data

How the results depend on the processing

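Under 16 alternatives, the 39 named genes that were tested gave 624 fold changes, of which 554 kept their direction and side of the threshold, 27 passed it anew, 31 fell short of it and 12 changed sign. The alternative at an adjusted p under 0.1 keeps the fold changes of the main fit, so no sign can change there. Sign changes were in 5 genes that were not called and in 0 called genes. Without 1 library, values ran from -0.39 to 0.65 for Mrps18b (below 0 without steatosis 3 or NASH 1), from -0.012 to 0.39 for Mrps30 (below 0 without NASH 1), from -0.34 to 0.22 for Mrpl48 (above 0 without steatosis 1 or NASH 1) and from -0.22 to 0.074 for Ptcd3 (above 0 without steatosis 1, steatosis 2 or NASH 3). With library sizes from other genes Mrpl48 was at 0.019 and Ptcd3 at 0.062, and with 4 libraries Mrpl21 was at -0.017 and Ptcd3 at 0.15. The causes were not tested. 0 members were called higher under each of the 16. Members called lower numbered 2 with library sizes from other genes without TMM, 10 with no low-count filter, 11 at an adjusted p under 0.1, 0 in the fit of 4 libraries, and 0 to 4 when 1 library was left out. Over all tested genes, calls higher numbered 300 with DESeq2, 535 with no filter, 445 at an adjusted p under 0.1, 17 with 4 libraries and 29 to 170 without 1 library. Calls lower numbered 222 with library sizes from other genes, 912 with no filter, 784 at an adjusted p under 0.1, 19 with 4 libraries and 77 to 298 without 1 library, and the first of these came with 179 higher, against 169 higher and 379 lower with TMM. Fits with fewer libraries have fewer residual degrees of freedom.

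Pathway genes called higher, 0 by the main analysis, were 1 with upper-quartile factors, 1 with library sizes from other genes, 1 with DESeq2, 2 with no filter and 1 at an adjusted p under 0.1. Those called lower, also 0 by the main analysis, were 2 with DESeq2, 2 with no filter and 2 at an adjusted p under 0.1. The median log2 fold change of members was -0.18 with library sizes from other genes and -0.38 to -0.24 without 1 library. For the large subunit it was -0.22 and -0.40 to -0.25, and for the small subunit -0.10 and -0.31 to -0.14, with -0.14 in 4 libraries. The mean summed level was 2507 CPM in steatosis and 2075 CPM in NASH with the library sizes from other genes, and in NASH 414 CPM with 4 libraries and 364 to 422 CPM without 1 library. Summed levels were not recomputed for DESeq2, limma-voom, the block or the threshold.

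Correlations of same-numbered libraries' deviations from their group means were 0.035, -0.012 and 0.071. Those of differently numbered libraries ran from -0.098 to 0.068. The values gave no sign that the replicate numbers pair the samples, and with 3 libraries per group they cannot exclude it. With the replicate number as a block, 2 members were called lower (Mrpl20 and Mrpl38), 1 pathway gene was called higher, and 153 genes were higher and 313 lower over all. The median tested member had 40.5 counts in NASH 3, the shallowest library, and how far depth limits the calls was not tested.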

Other observations

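Processed pseudogenes of mitochondrial ribosomal protein genes, which the symbol rule leaves out, were also counted. Mrpl23-ps1 had 759 counts over the 6 libraries, more than Mrpl23 itself, and a log2 fold change of -0.47 with overlapping groups (edgeR's adjusted p = 0.260). Mrpl48-ps had 91 counts in all, with a log2 fold change of 0.12 (edgeR's adjusted p = 0.882). Mrps36-ps1 had 100 and Mrps36-ps2 33 counts, and Mrps36-ps3 had 0.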
